A study of Mus musculus with 12 samples.

Results

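Microglia from mice overexpressing ZEB1 were compared with microglia from mice carrying a ZEB1 knock-down, both taken before transient middle cerebral artery occlusion (tMCAO), a stroke model in which a brain artery is blocked and then reopened. The comparison held 4 of the 12 arrays of the series, 2 per genotype, chosen by their labels. All were male mice aged 8 weeks, labelled as untreated controls for tMCAO. The cells had been enriched magnetically for CX3CR1, the fractalkine receptor, and their RNA was hybridised to 1-colour Agilent arrays. The promoter of the overexpression construct, the cells it is active in and the knock-down construct are not given in the sources used here. The labels do not state that replicates came from separate animals, and the p-values measure the spread between these samples alone, part of which may be technical.

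ZEB1 is a zinc-finger and homeobox transcription factor that binds E-box elements and is best known for repressing epithelial genes during epithelial-mesenchymal transition. It takes part in TGF-beta responses, and TGF-beta in turn maintains the homeostatic state of microglia, the resident macrophages of the brain. The comparison sets the most opposed genotypes of the design against each other. Levels below are log2 signals minus the array's own 75th percentile, and differences are overexpression minus knock-down on that log2 scale, so that 1 is a doubling.

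The arrays of the opposed genotypes differed in quality. All 4 lay in the same row of the same slide, overexpression in columns 1 and 2 and knock-down in columns 3 and 4, so side and genotype cannot be told apart. The scanner software marked 23.7% and 18.2% of spots as non-uniform or outlying on the overexpression arrays, against 1.87% and 1.03% on the knock-down arrays. Among spots brighter than the 75th percentile these shares were 66.0% and 49.4% against 6.69% and 3.68%. The SD of the negative controls was 9.88 and 13.2 intensity units against 4.59 and 6.65, and 62.7% and 60.4% of spots were well above background against 73.5% and 66.0%. Marked spots were left out of the main test, and values with all spots kept are given where this matters. The overexpression replicates also split from each other in pituitary hormone and kallikrein genes, described further on.

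**Figure D1:**
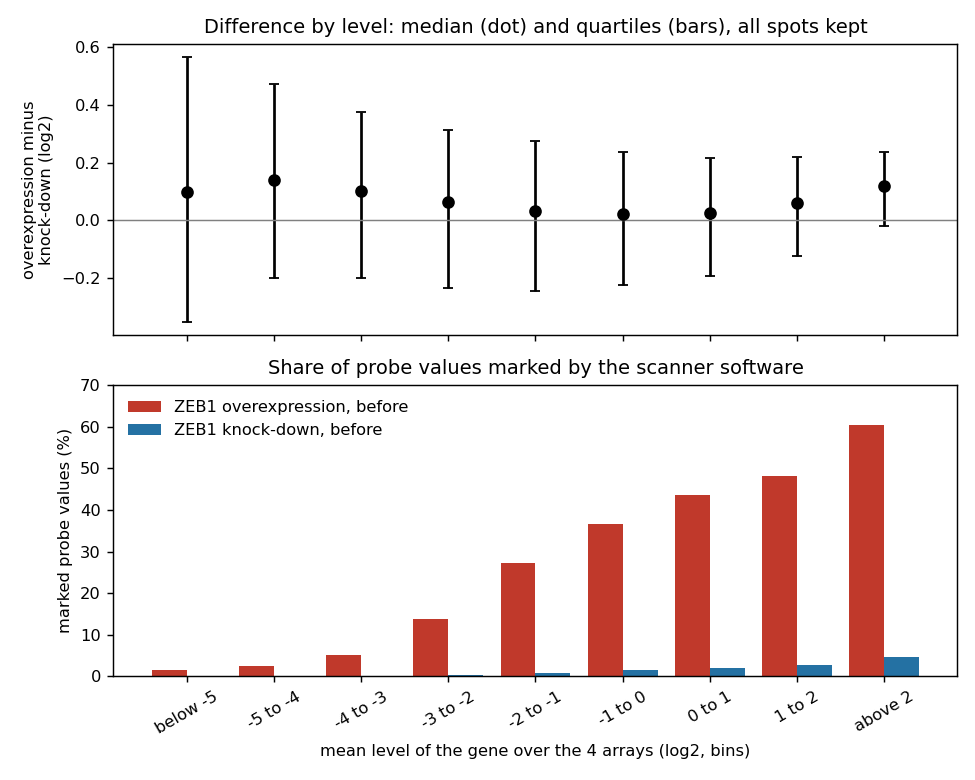
Upper panel: log2 difference between overexpression and knock-down against the mean level of the gene, with the median as a dot and the quartiles as bars, all spots kept. Lower panel: percent of probe values marked by the scanner software in each group; in the genes above a level of 2 it reached 60.5% in overexpression and 4.55% in knock-down.

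Zeb1 itself was examined first, since it checks the labels. Its brighter probe lay at -0.28 and -0.36 on the overexpression arrays and at -0.11 and -0.79 on the knock-down arrays, with wild type before tMCAO at -0.57 and -0.59. The overexpression values fell between the knock-down values, so the groups overlapped. With all spots kept the difference was 0.12 (95% interval -0.49 to 0.73). The dimmer probe, marked on both overexpression arrays, gave 0.09 (95% interval -0.45 to 0.63). The spot of overexpression replicate 1 was marked, and without it the brighter probe gave 0.08 ± 0.38 (SE, limma adjusted p = 0.926) on 1 overexpression array. The probes therefore did not separate the libraries labelled overexpression from those labelled knock-down. Whether either probe covers the construct or the knock-down target is unstated in the labels, and directions below are those of the labels. Zeb2, the paralogue that is abundant in microglia, differed by -0.16, -0.17 and -0.56 at its 3 probes, all marked on both overexpression arrays. The widest of those intervals ran from -1.63 to 0.52.

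No gene passed the test between the opposed genotypes. Limma called 0 of 25152 genes (0%) at an adjusted p under 0.05, and the smallest adjusted p was 0.124. At an unadjusted p under 0.05 stood 3346 genes (13.3%), of which 1904 (7.57%) were higher and 1442 (5.73%) lower in overexpression. With all spots kept the test called 0 of 30525 genes, while 4010 (13.1%) had an unadjusted p under 0.05, 7.14% of all genes on the higher and 6% on the lower side. The count depended on how the probes of a gene were joined. Averaging all kept probes of a gene, in place of taking the brightest, gave 512 calls, 72 higher and 440 lower. Of these, 154 were tested in the main limma fit too, 143 of them in the same direction and 107 at an unadjusted p under 0.05. The others had no value in a group there. In 421 of these 512 genes the 4 arrays did not average the same probes, because different spots were marked on each, and in 91 they did. Restricting the average to probes unmarked on all 4 arrays, a version added after the 512 calls had been seen, gave 0 calls. Of the called genes, 467 were tested in that version, and 337 of them had the same direction. Quantile normalization called 4 genes and median centring 1.

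The share of higher genes also moved with the scaling. Of the genes at an unadjusted p under 0.05, 56.9% were higher in overexpression in the main test, 82.3% with normexp background correction, 42.1% with quantile normalization, 27.6% with median centring and 87.9% without a filter on dim probes. The median difference of all genes was 0.10 in the main test, 0.22 with normexp and -0.05 with median centring. Genes are not independent replicates. Over all of them the SD of the difference between the group means, each of 2 arrays, was 0.49. The SD of the difference between the single replicate arrays was 0.57 in overexpression and 0.44 in knock-down. Single arrays vary more than means of 2, so these SDs cannot be compared directly. The groups did not overlap, with all spots kept, in 31.7% of genes with overexpression higher and in 19.5% with overexpression lower.

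Genes to be named had to be unmarked and well above background on all 4 arrays, not to overlap between the groups and to differ by over 1. That left 69 genes higher and 31 lower, and the 8 with the smallest unadjusted p in each direction are described, with adjusted p from 0.140 to 0.221. Since the rule selected them on this difference, their values are descriptive. No theme was tested among them. Dnah11, an axonemal dynein heavy chain, was at -4.17 and -3.94 in overexpression and at -5.35 and -5.53 in knock-down, a difference of 1.38 ± 0.15 (SE, limma adjusted p = 0.140). Ttc8, a component of the BBSome that carries cargo to cilia, was at -1.22 and -1.03 against -0.12 and 0.01, a difference of -1.07 ± 0.17. In both genes the groups were farther apart than their replicates, which the rule for naming favoured.

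Rpph1, the RNA component of ribonuclease P, was at -1.21 and -1.05 in overexpression and at -2.37 and -2.64 in knock-down, a difference of 1.38 ± 0.21. Rprl3, a gene for a related ribonuclease P RNA, differed by 1.04 ± 0.19. Their sequences are alike, so signal may be shared between them. Abcb11, the bile salt export pump, showed the widest difference of the higher genes at 2.09 ± 0.40, with -3.71 and -4.04 against -6.23 and -5.70. Amhr2, the receptor of anti-Müllerian hormone, differed by 1.09, and by 0.63 at a further probe. Il20rb, a subunit of interleukin-20 receptors, differed by 1.03. Shisa8, an auxiliary protein of AMPA receptors, was at -2.99 and -3.49 against -4.35 and -4.34. Vmac, which encodes a vimentin-associated coiled-coil protein, differed by 1.01.

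Among the lower genes Zfp951, a zinc-finger gene, had the widest difference at -2.06 ± 0.25 (limma adjusted p = 0.151), with -4.88 and -4.28 in overexpression against -2.40 and -2.64 in knock-down. A further probe of it gave -1.04. Srp54b, a signal recognition particle subunit with close copies in the mouse genome that may share its signal, was at -4.86 and -4.44 against -2.58 and -3.13. Ctr9, a subunit of the PAF1 complex that travels with RNA polymerase II, was at -3.29 and -3.09 against -1.88 and -1.15. Chrna6, a nicotinic acetylcholine receptor subunit, differed by -1.22. Grik2, a kainate receptor subunit, was at -2.58 and -2.89 against -1.69 and -1.78. Ccdc146, a coiled-coil gene, differed by -1.83, with -0.49 at a further probe. Zfp329 differed by -1.10, but its other 2 probes gave -0.09 and 0.26, so its probes disagreed.

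**Figure D2:**
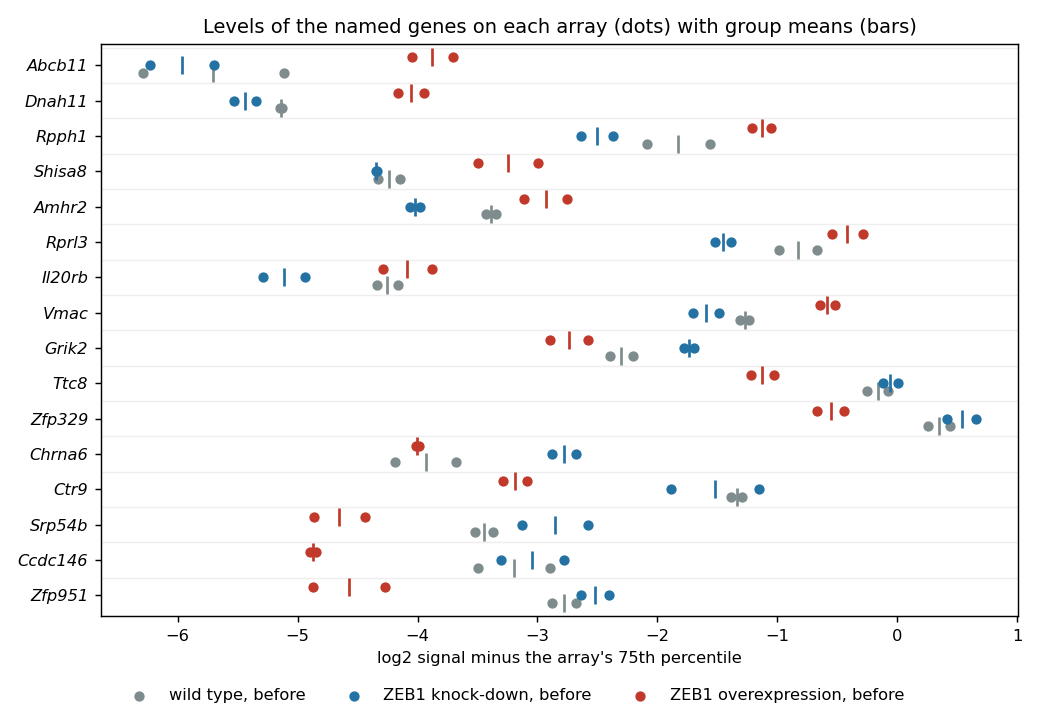
Log2 level of the 16 named genes on each array (dots) with the group mean (bars) for overexpression, knock-down and wild type before tMCAO. In 15 of the 16 genes, chosen for the difference shown, the wild type mean lay between those of the opposed genotypes, against 62.1% of the genes that differed by over 1.

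Wild type before tMCAO offered a reference on the other row of the slide. Its mean lay between the overexpression and knock-down means in 15 of the 16 named genes, which were chosen for this difference, against 46.3% of all genes and 62.1% of those that differed by over 1. The exception was Ctr9 with -1.29 and -1.39 in wild type. The position on the slide also moved with these genes. On the other row, knock-down after tMCAO occupied columns 1 and 2 and wild type before tMCAO columns 3 and 4, the same sides as here, without sharing an array. That side difference had the same direction in 15 of the 16 named genes, all but Abcb11, against 61.2% of all 30525 genes and 77.8% of the 1613 genes that differed by over 1. Across genes the differences of both rows correlated at 0.33 (Spearman 0.35), a description with no test, since the other row differs in genotype and tMCAO as well. The part of the slide side in the named differences was not tested.

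**Figure D3:**
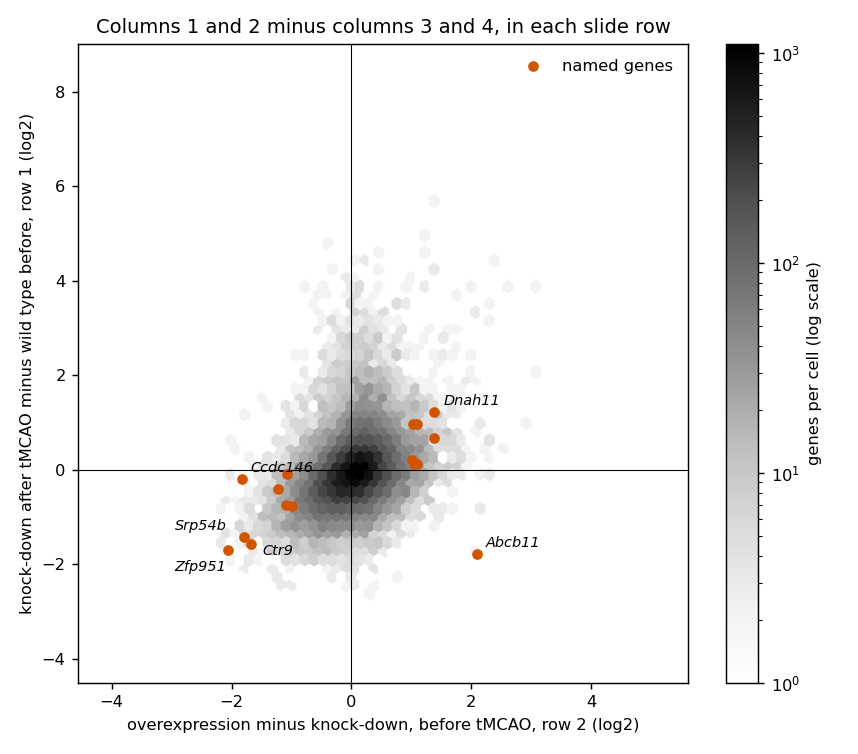
Log2 difference between columns 1 and 2 and columns 3 and 4 in row 2 (overexpression minus knock-down, x axis) and row 1 (knock-down after tMCAO minus wild type before, y axis); shading counts genes and orange points are the 16 named genes. Of those genes 15 lie in the lower left or upper right part, and Abcb11 lies at the lower right.

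Some genes were well above background in a single genotype. Among genes with a RefSeq symbol and unmarked spots on all 4 arrays, 2 were so in overexpression alone and 427 in knock-down alone, beside the lower background noise of the knock-down arrays. For these the dim group gives only a bound, computed against the lowest signal called well above background on each array. Olfr224, which encodes an odorant receptor, stood at least 13.3-fold higher in overexpression (limma adjusted p = 0.211), although its replicates lay far apart at -1.39 and -4.46. Tff2, a trefoil peptide of mucus, was at least 4.21-fold higher (adjusted p = 0.151), with -5.09 and -4.09 in overexpression. In knock-down, the phospholipase gene Gdpd3 was at least 8.92-fold higher (adjusted p = 0.436), but its value of 0.87 in replicate 1 and -5.27 in replicate 2 shows that a single array carried it. Slc16a5, a monocarboxylate transporter, was at least 2.10-fold higher, although a further probe gave a difference of 0.03. Tmem74, an autophagy-related membrane protein, was likewise at least 2.10-fold higher, with -4.36 and -4.32 (adjusted p = 0.140). Chil4, a chitinase-like protein with close copies, was at -3.71 and -5.14 in knock-down (limma adjusted p = 0.678), and its difference ran from -1.83 to -0.39 when a knock-down array was left out. Wild type before tMCAO spanned those values, at -6.52 and -3.16. Galnt3, a mucin-type glycosyltransferase singled out after its values were seen, had the smallest p of all. It was at -4.84 and -4.95 in knock-down, at least 1.43-fold above overexpression (adjusted p = 0.124).

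Among the epithelial genes known as ZEB1 repression targets, 24 of the 29 listed were tested and 1 was at an unadjusted p under 0.05, St14, against 7.57% of all genes in that direction. With all spots kept, 26 were measured, and 8 were higher and 5 lower in overexpression without overlap, beside 31.7% and 19.5% of all genes. Their median difference was 0.11, beside 0.07 for all genes. St14, the membrane protease matriptase, was at -3.58 and -3.52 in overexpression and at -4.05 and -3.98 in knock-down, a difference of 0.47 ± 0.16 (limma adjusted p = 0.323). The tight-junction gene Cldn4 was at -6.07 and -4.84 against -6.66 and -6.38, with 1 array of each group not well above background. Cldn7, a further claudin, was at -3.70 and -3.05 against -3.01 and -2.79, and Ovol1, a transcription factor of epithelial identity, at -0.96 and -0.76 against -0.99 and -1.69. None of these differences passed the test. The adhesion gene Epcam and the trafficking gene Rab25, picked out after their values were seen, split the overexpression replicates instead, at -5.50 and -2.24 for Epcam and at -5.57 and -2.83 for Rab25.

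These targets are shown with their promoters because many of them carry the E-box to which ZEB1 is known to bind. The 300-base windows, from 250 bases before to 50 after the start in RefSeq's GRCm38.p6 annotation, were searched for CAGGTG on both strands, that is, CAGGTG or CACCTG, and matches are in capitals. At least 1 match was found in 15 of the 17 measured targets that have a window (88.2%), against 22.9% of the tested genes with a window and 20.2% of all windows. The list was made of known targets, so this share describes the list and not the contrast. Among genes at an unadjusted p under 0.05 the motif was found in 24% of those higher and 22.1% of those lower in overexpression, close to that background. None of the 11 named genes with a window held it, 6 of them higher and 5 lower. A match describes these letters and not a bound site.
Cldn4, minus strand of chr5:134946885-134947184: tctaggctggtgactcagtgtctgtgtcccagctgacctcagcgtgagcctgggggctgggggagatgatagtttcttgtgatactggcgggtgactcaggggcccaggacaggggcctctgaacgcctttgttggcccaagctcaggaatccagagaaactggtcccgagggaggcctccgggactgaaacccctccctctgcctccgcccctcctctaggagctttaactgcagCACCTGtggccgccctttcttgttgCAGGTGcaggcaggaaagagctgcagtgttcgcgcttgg
Rab25, minus strand of chr3:88548230-88548529: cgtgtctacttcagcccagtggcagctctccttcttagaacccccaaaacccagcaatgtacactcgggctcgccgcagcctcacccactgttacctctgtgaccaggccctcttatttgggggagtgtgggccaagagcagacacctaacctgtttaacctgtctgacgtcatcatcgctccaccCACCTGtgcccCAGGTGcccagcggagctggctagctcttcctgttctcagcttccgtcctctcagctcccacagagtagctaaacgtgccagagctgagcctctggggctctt
Epcam, plus strand of chr17:87635729-87636028: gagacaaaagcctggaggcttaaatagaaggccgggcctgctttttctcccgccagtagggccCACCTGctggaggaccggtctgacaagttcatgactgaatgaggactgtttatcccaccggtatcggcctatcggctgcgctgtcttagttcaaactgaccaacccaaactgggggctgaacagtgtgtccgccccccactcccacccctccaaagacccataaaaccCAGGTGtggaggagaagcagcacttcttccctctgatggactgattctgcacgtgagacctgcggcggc
Each of the 3 windows holds 2 matches, and none of these genes passed the test between the genotypes.

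In the TGF-beta pathway 16 of 21 listed genes were tested, with 1 at an unadjusted p under 0.05 in each direction, beside 7.57% of all genes higher and 5.73% lower. Tgif1, a corepressor of Smad proteins, was at -1.99 and -2.07 in overexpression against -2.79 and -2.78 in knock-down, a difference of 0.75 ± 0.24 (limma adjusted p = 0.309). Smad7, the inhibitory Smad that dampens the receptor signal, was at -1.20 and -0.98 against 0.54 and 0.78, a difference of -1.75 ± 0.24 with all spots kept (adjusted p = 0.158). The mean of its probes unmarked on all 4 arrays gave a smaller difference of -1.06. Leaving out the marked spots of the brightest probe left 1 array per group. The knock-down arrays after tMCAO, on the same side of the slide as overexpression, were both at -1.14. They also differed from overexpression in genotype and tMCAO, and the part of the slide side was not tested. Ltbp3, which tethers latent TGF-beta to the matrix, differed by 0.42 ± 0.19. The mesenchymal list held no gene of 12 tested at an unadjusted p under 0.05, and Tagln, an actin-binding protein, differed by 0.49 ± 0.24.

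Microglial identity genes were detected in both genotypes. Of the 20 homeostatic genes 19 were well above background on all 4 arrays, and 14 could be tested. At an unadjusted p under 0.05, beside 7.57% of all genes higher and 5.73% lower, 0 of these were higher and 1 lower. That gene was Siglech, a sialic acid-binding lectin of microglia, at 0.17 and 1.04 in overexpression and at 1.96 and 2.41 in knock-down, a difference of -1.58 ± 0.37 (limma adjusted p = 0.285). With the mean of all its probes the Siglech difference was -0.13. Cx3cr1, the receptor used for the enrichment, was at 0.15 and 0.00 against 0.14 and 0.27. P2ry12, the purinergic receptor of resting microglia, was at 0.75 and 1.12 against 1.44 and 1.31, with both overexpression spots marked. Tmem119, a microglia-restricted membrane protein, was at 0.34 and 0.43 against -0.05 and 0.25. The median of the list over each array was 0.16 and 0.27 in overexpression and 0.21 and 0.14 in knock-down.

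Genes induced in disease-associated microglia gave 2 higher and 1 lower of 15 tested at an unadjusted p under 0.05, beside 7.57% and 5.73% of all genes. Gpnmb, a glycoprotein of phagocytic microglia, was at -2.60 and -2.71 in overexpression and at -3.42 and -3.41 in knock-down, a difference of 0.76 ± 0.17 (limma adjusted p = 0.253). Axl, a receptor for apoptotic cells, was at 2.14 and 2.15 against 1.63 and 1.67, a difference of 0.50 ± 0.13 (adjusted p = 0.276). Clec7a, the receptor dectin-1, was at -6.90 and -7.01 against -6.30 and -6.23, but only 1 of the 4 arrays was well above background. Lpl, lipoprotein lipase, was at -0.62 and -0.09 against 0.78 and 0.03.

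The inflammatory effectors differed in both directions, and with all spots kept 9 of the 19 measured had a positive and 10 a negative difference. Hcar2, the receptor of niacin and hydroxybutyrate, was at -3.58 and -3.96 in overexpression against -5.03 and -5.68 in knock-down, a difference of 1.58 ± 0.48 (limma adjusted p = 0.313). Il1rn, the antagonist of the interleukin-1 receptor, was at -3.37 and -4.27 against -6.27 and -5.39, and Acod1, which makes itaconate, at -2.67 and -2.63 against -4.04 and -3.66. Wild type arrays did not sit between the groups here, with Acod1 at -6.12 and -4.87. Il1a, interleukin-1 alpha, picked out after its values were seen, was at -8.05 and -6.77 against -5.64 and -6.60, a difference of -1.29 ± 0.78, and was well above background on 1 of these arrays. Of the 18 tested effectors 1 was higher and 0 lower at an unadjusted p under 0.05, beside 7.57% and 5.73% of all genes. The list's median difference was 0.03. Of 17 tested chemokines 0 were at an unadjusted p under 0.05 in either direction, beside the same shares of all genes. Keeping all spots, 2 of 19 were higher and 0 lower at that unadjusted p (7.14% and 6% of all genes), Ccl9 and Ccl17. The chemokine gene Ccl9 differed by 0.75 ± 0.30. Ccl17, a ligand of the receptor CCR4 singled out after its values were seen, was at -0.37 and 0.27 against -0.94 and -1.23, with both overexpression spots marked. By comparison, Cxcl10, an interferon-induced chemokine, differed by -1.17 ± 0.60 on 1 overexpression array and by -0.41 with all spots kept.

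The interferon response had a negative median difference, -0.07, with 1 of 17 tested genes lower at an unadjusted p under 0.05, beside 5.73% of all genes. That median had no stable sign, at -0.26 without overexpression replicate 2 and 0.12 without knock-down replicate 1. The lower gene was Ifit2, an antiviral effector, at -2.49 and -2.33 in overexpression and at -1.65 and -1.95 in knock-down, a difference of -0.61 ± 0.22 (limma adjusted p = 0.338). In antigen presentation, the immunoproteasome subunit Psmb8 differed by 0.47 ± 0.16 while the class II gene H2-Aa was at -3.51 and -2.73 against -2.35 and -1.89. C4b, a complement component, was at 0.60 and 0.41 against 0.13 and -0.24, a difference of 0.56 ± 0.19 (adjusted p = 0.320). Of 11 tested MHC genes 1 was higher and 0 lower at an unadjusted p under 0.05. Of 13 tested complement and Fc receptor genes 1 was higher and 0 lower. The lysosomal list had 0 of 11 tested genes at an unadjusted p under 0.05, and so did the alternative activation list of 10. Of all genes 7.57% were higher and 5.73% lower at that threshold.

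**Figure D4:**
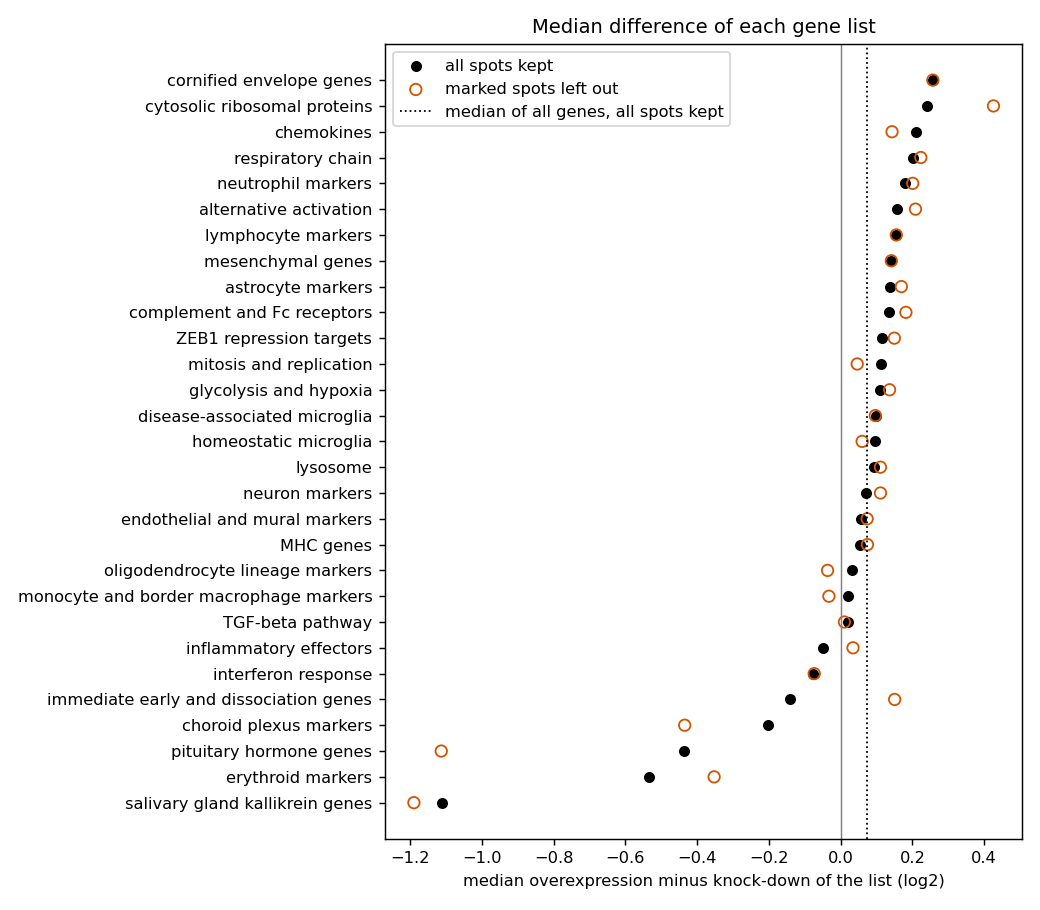
Median log2 difference between overexpression and knock-down for each of the 29 gene lists, with all spots kept (filled) and with marked spots left out (open); the dotted line is the median of all genes, 0.07. With all spots kept the kallikrein, erythroid and pituitary lists lie farthest to the left; with marked spots left out the choroid plexus list, at -0.43, lies left of the erythroid list, at -0.35.

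Ribosomal protein genes and subunits of the respiratory chain lay slightly higher in overexpression with all spots kept. Of 24 ribosomal genes 15 were higher without overlap and 0 lower, and of 22 respiratory chain genes 18 were higher and 1 lower, against 31.7% and 19.5% of all genes. Their median differences were 0.24 and 0.20, while the genes above a level of 2, where both lists lie, had a median of 0.12 and a share of 46.3% higher without overlap. These bright genes are those with the most marked spots, and 11 ribosomal genes and 12 respiratory chain genes had a value in both groups without them. None of those was at an unadjusted p under 0.05, beside 13.3% of all genes. Rps3, a protein of the small ribosomal subunit, was at 4.19 and 4.50 against 3.88 and 3.90, and Cox4i1, a cytochrome c oxidase subunit, at 4.48 and 4.79 against 4.34 and 4.41. The part of the marked spots in these differences was not tested.

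Markers of other brain cells were present in both genotypes. All 15 neuron, 12 astrocyte and 13 oligodendrocyte lineage markers were well above background on all 4 arrays, and fewer cells of a type and less RNA per cell cannot be told apart in bulk samples. The median of the neuron list was 2.67 and 2.57 in overexpression and 2.77 and 2.82 in knock-down. Astrocyte medians were 2.24 and 2.56 against 2.33 and 2.31, and oligodendrocyte medians 1.82 and 1.69 against 1.78 and 1.84. Of the 12 astrocyte markers 11 had a positive difference with all spots kept, and 8 were higher and 0 lower without overlap, beside 31.7% and 19.5% of all genes. Their levels ran from 0.79 to 4.38. Among all genes at a mean level of 1 to 2 these shares were 35.2% and 20.2%, and above 2 they were 46.3% and 11.9%. Both overexpression spots were marked in 5 of the 12 markers. The list's median difference was 0.17 in the main test and -0.08 with the mean of all probes. Gfap, the astrocyte filament protein, was at 1.68 and 1.46 against 0.79 and 1.18, a difference of 0.58 ± 0.20 (limma adjusted p = 0.332). Of 12 tested vascular markers 2 were higher and 1 lower at an unadjusted p under 0.05, beside 7.57% and 5.73% of all genes. Among them the endothelial adhesion gene Pecam1 was at -2.30 and -2.52 against -2.99 and -3.09, a difference of 0.63 ± 0.16 (limma adjusted p = 0.267). Tek, the angiopoietin receptor, differed by -0.47. Neutrophil, monocyte and choroid plexus lists had 0 tested genes at an unadjusted p under 0.05, beside 7.57% of all genes higher and 5.73% lower. With all spots kept 8 of the 10 choroid plexus genes had a negative difference, and 1 was higher and 3 lower without overlap. The median difference of that list ran from -0.57 to -0.13 over the settings. Of 6 erythroid genes tested with marked spots left out, 1 was higher and 1 lower at an unadjusted p under 0.05. The higher one, the embryonic globin gene Hba-x, was not well above background on any of the 4 arrays. The lower one, Slc4a1, the red cell anion exchanger, was well above background in knock-down alone, at -6.27 and -5.09 (adjusted p = 0.244).

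Pituitary hormone genes separated the overexpression replicates rather than the genotypes. Gh, growth hormone, was at -1.42 and 4.39 in overexpression and at 3.05 and 3.82 in knock-down. Prl, prolactin, was at -1.68 and 3.08 against 1.57 and 2.78, and Pomc, the precursor of corticotropin, at 1.31 and 4.02 against 1.81 and 3.58. Replicate 1 of overexpression was thus the lowest and replicate 2 the highest in all 3. The same order held for Cga, the common subunit of glycoprotein hormones, at -6.94 and 1.79 against -1.42 and 0.29. It held for Tshb, thyrotropin beta, at -4.64 and 0.90 against -2.30 and -2.33. Fshb, follitropin beta, had that order too, at -7.31 and -1.86 against -6.55 and -3.94. So did Lhb, lutropin beta, at -4.37 and -2.97 against -3.91 and -3.66. The array median of the 8 measured genes was -4.50 and 1.34 in overexpression and -1.86 and -1.02 in knock-down.

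Glandular kallikreins, serine proteases abundant in the mouse salivary gland, followed the same split. Klk1 was at -4.75 and 1.76 in overexpression and at -1.26 and 0.34 in knock-down. Klk1b4 was at -7.90 and 0.16 against -2.74 and -0.99, and Klk1b22 at -5.45 and 0.72 against -1.68 and -0.49. The 11 kallikreins measured are closely related copies whose signal may be shared. Klk1b3, Klk1b5, Klk1b8, Klk1b11, Klk1b16, Klk1b21, Klk1b24 and Klk1b27 likewise had replicate 1 lowest and replicate 2 highest. Of the other members, Egf was at -5.02 and -5.16 and Amy1 at -0.91 and -0.76 in overexpression, without that split. Since the replicate 2 spots of Gh, Prl, Pomc and 5 kallikreins were marked, their main differences, such as -4.86 ± 0.78 for Gh (limma adjusted p = 0.227), rest on replicate 1 alone. With all spots kept the median difference of the list was -1.11 for the salivary list, 1.75 without overexpression replicate 1 and -4.15 without replicate 2. For the pituitary list it was -0.44, 1.14 and -2.20. The ZEB1 target list was at 0.11, 0.16 and 0.10 under the same omissions. With marked spots left out its median was 0.15, and -0.04 without knock-down replicate 1. The part of pituitary and salivary signal in other differences was not tested.

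**Figure D5:**
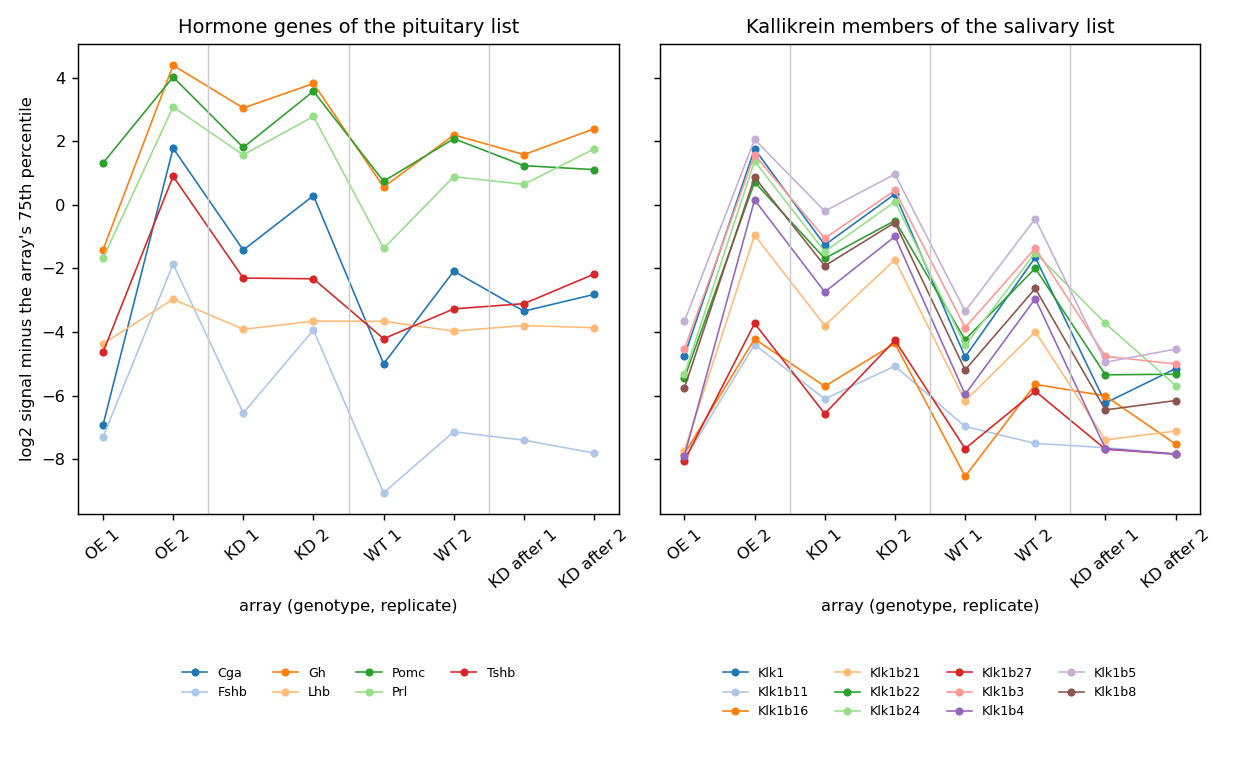
Log2 level on each of the 8 arrays of the slide for the hormone genes of the pituitary list (left) and the kallikreins (right), all spots kept; OE is overexpression, KD knock-down and WT wild type, before tMCAO unless stated. Lines join the values of a gene. Gh, Prl, Pomc, Cga, Tshb, Fshb, Lhb and every kallikrein shown are lower in overexpression replicate 1 and higher in replicate 2 than on both knock-down arrays.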

How the data were processed

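The authors deposited, per the file headers, linear spot intensity after background subtraction and detrending by Feature Extraction 11.5.1.1 of Agilent. The version in the submitters' processing notes is 9.1. Yes or no marks per spot, a unit of the kind "other", come from the same deposited files, per the file headers. The deposited value table holds log2 values, used as an alternative; in it, the replicates of knock-down after tMCAO were exchanged relative to the scanner files. The intensity was converted to log2, the array's 75th percentile subtracted, marked spots left out and spots of a probe averaged. Probes were named through RefSeq accessions (33767 of 56605, 59.7%). A probe was kept if well above background on every array of a group, which left 30525 genes, each represented by its brightest probe. Limma 3.58.1 in R 4.3.3 (lmFit, eBayes, two-sided, Benjamini-Hochberg) fitted the 8 arrays of the slide, 4 groups of 2. In this fit 5373 genes had no value in a group, and 18.8% of tested genes rested on 1 overexpression array. The fit was tested on simulated data. The normexp alternative was planned on the mean signal; the median signal, with its background, was used instead.

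The members and the 29 gene lists were chosen with earlier results of these data known. Genes named were Zeb1 and Zeb2, up to 8 per direction above background on all 4 arrays, up to 4 per direction with a bound, list members with the smallest unadjusted p or that define a cell type, and the measured pituitary and salivary genes, a few of which are not reported here. The number of arrays limits the precision. Replicate numbers did not pair the samples: the correlation of deviations between the groups was 0.049.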

Additional observations from a re-analysis of the deposited data

How the results depend on the processing

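The planned mean of all kept probes of a gene gave 512 calls at an adjusted p under 0.05 in limma, with 1865 genes higher and 2319 lower at an unadjusted p under 0.05 and a higher share of 44.6%. A version restricted to probes unmarked on all 4 arrays, added after those calls had been seen, gave 0 calls with 1587 higher and 1270 lower. In 421 of the 512 genes, against 27% of the genes tested, the arrays averaged different probes, and in 91 they averaged the same. After the filter 96 of the called genes had 1 probe, so averaging could not change their values. The cause of the calls was not tested. Among the genes named here or examined, those called with this mean were Dnah11, Vmac, Rpph1, Zfp951, Srp54b, Tff2, Tmem74, Galnt3 (-2.58, adjusted p = 0.00497), Alpk2, BC046451 and Sprr1a, the last not well above background on any of the 4 arrays. For all of these but Zfp951 the difference was the same as in the main test. Averaging thus changed no value of theirs, and their calls add no further measurement. List members without a value in the main test were called too: Fgfr3, Ctsl, Ndufb8 and Pdgfra, all lower. Quantile normalization gave 4 calls (Galnt3, Alpk2, BC046451 and an unannotated transcript, all lower in overexpression) and median centring 1, Galnt3. Every other alternative gave 0 calls, with smallest adjusted p from 0.052 to 0.263 outside the omissions of an array. Genes higher at an unadjusted p under 0.05 numbered 1904 in the main test, 4670 with normexp, 758 with median centring and 9206 without a filter. Leaving out 1 array gave 987 to 1538 higher, 964 to 1235 lower and 0 calls throughout; the lowest higher count came without overexpression replicate 2, and without knock-down replicate 1 or 2 it was 1227 or 1201. The Zeb1 difference ran from -0.25 (without knock-down replicate 2) to 0.42 and was -0.13 with median centring. Without overexpression replicate 2 that probe had no value.

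Direction reversed for Clec7a with normexp (0.057), for Lhb with median centring (-0.018) and for Zfp329 (0.0061) and Cx3cr1 (0.16) with the mean of all probes. For genes that reversed when 1 array was left out, the values over those omissions ran from -1.82 to 1.44 for Epcam, from -0.20 to 2.54 for Rab25, from -6.37 to 2.35 for Cga, from -0.58 to 0.82 for Lhb, from -2.07 to 3.38 for Fshb, from -2.33 to 3.21 for Tshb and from -4.29 to 2.22 for Klk1. Each of these extremes came from leaving out an overexpression array. The cause of these reversals was not tested. With the replicate block there were 0 calls, 2174 genes higher and 1419 lower, and the Zeb1 difference was 0.26; the numbers pair no samples, with correlations from -0.205 to 0.242 between groups. Of the list medians, 61 of 493 values under alternatives moved by more than the spread between replicates. Signal over background limits what can be said of genes dim in overexpression.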
